A study of Mus musculus with 6 samples.

Results

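The Krüppel-like factors described here are Klf2, Klf3, Klf4, Klf5, Klf6, Klf7, Klf9, Klf10, Klf13 and Klf15, 10 genes among the 21996 named genes read by a mouse Affymetrix array. Each gene was matched through a probe set whose platform annotation gives it as the only symbol, taking the brightest by mean over the 6 arrays for the only gene with more than 1, Klf7. RNA came from C3H10T1/2 cells, a mouse mesenchymal line, labelled as adipocytes at 9 days of differentiation. In 3 biological replicates the cells had been exposed for 72 h to an adenovirus, at a multiplicity of infection of 50, carrying a short hairpin RNA against Zc3h10 under a U6 promoter (Zc3h10 shRNA), and in 3 biological replicates to the control adenovirus with a scrambled hairpin (scramble). The labels do not say where the 72 h fell within the 9 days. Both groups carried an adenovirus, the model is 1 cell line, and 1 hairpin sequence was used against Zc3h10. Zc3h10 encodes a CCCH zinc finger RNA-binding protein, and the comparison asks which transcripts differ when the hairpin targets it.

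Krüppel-like factors are transcription factors that share C-terminal zinc fingers, with which they bind CACCC and GC-rich elements, and differ in their N-terminal regions, which recruit activators or corepressors. In fat cells they act at successive steps of differentiation. Klf4 and Klf5 promote the early steps, Klf9 and Klf15 act later, and Klf2 and Klf3 hold precursor cells back, as worked out mainly in mouse 3T3-L1 cells. By the partners they bind, Klf3 belongs to the CtBP-binding repressors, Klf2, Klf4, Klf5, Klf6 and Klf7 to a mostly activating group, and Klf9, Klf10 and Klf13 to the factors that bind the SIN3 corepressor, while Klf15 stands outside these groups.

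The 250 bases upstream of the annotated start are shown for Klf15, which passed the test, and for Klf3, Klf4 and Klf6, the members whose values lay next to the threshold on the opposite side. They are from RefSeq on build GRCm38.p6, written 5′ to 3′ on the strand of the gene. Capitals mark the CACCC box and the GC box GGGCGG on either strand. The windows are chr6:90462326-90462575 on the plus strand for Klf15, chr5:64803271-64803520 on the plus strand for Klf3, chr4:55532476-55532725 on the minus strand for Klf4 and chr13:5861239-5861488 on the plus strand for Klf6.
Klf15: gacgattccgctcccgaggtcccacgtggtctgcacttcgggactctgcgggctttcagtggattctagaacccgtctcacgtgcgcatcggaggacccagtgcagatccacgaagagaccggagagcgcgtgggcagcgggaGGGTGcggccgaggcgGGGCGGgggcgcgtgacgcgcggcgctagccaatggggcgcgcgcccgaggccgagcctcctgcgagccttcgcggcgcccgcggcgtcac
Klf3: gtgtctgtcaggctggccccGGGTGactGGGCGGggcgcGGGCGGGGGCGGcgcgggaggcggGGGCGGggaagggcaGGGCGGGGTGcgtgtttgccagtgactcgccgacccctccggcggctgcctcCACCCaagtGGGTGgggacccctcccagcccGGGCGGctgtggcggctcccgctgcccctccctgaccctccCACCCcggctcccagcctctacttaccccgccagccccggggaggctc
Klf4: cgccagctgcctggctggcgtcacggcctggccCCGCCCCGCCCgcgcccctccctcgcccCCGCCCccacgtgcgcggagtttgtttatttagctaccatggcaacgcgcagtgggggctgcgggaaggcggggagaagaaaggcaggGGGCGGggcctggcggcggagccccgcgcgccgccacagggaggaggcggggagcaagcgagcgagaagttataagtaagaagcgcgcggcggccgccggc
Klf6: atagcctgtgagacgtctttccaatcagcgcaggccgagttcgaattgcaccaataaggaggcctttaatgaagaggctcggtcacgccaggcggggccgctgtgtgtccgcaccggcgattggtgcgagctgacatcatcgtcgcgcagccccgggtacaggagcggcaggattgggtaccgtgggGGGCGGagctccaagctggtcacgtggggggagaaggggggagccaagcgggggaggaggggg

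Of the 10 members, 8 matched the promoter table, and Klf5 and Klf10 were not analysed in this respect. All 8 were richer in G and C than the median of 32851 promoters of the same length (52.4%), from 59.2% in Klf7 to 78.4% in Klf3. The GC box (GGGCGG, either strand) stood in 7 of the 8, Klf9 being the exception, against 32.7% of all promoters and 75% of the 9837 promoters with at least 59.2% G and C. The CACCC box (CACCC, either strand) stood in 6 of the 8, against 52% of all promoters and 65.2% of those GC-rich ones. Klf3 held 5 CACCC boxes and 6 GC boxes, and in 1 place a GC box and a CACCC box on the other strand share a base. Klf4 held 4 GC boxes and 0 CACCC boxes, Klf15 held 1 of each, and Klf6 held 1 GC box. The CCAAT box (CCAAT, either strand) stood in 4 of the 8, in Klf6, Klf9, Klf13 and Klf15, against 33.8% of all promoters and 29.2% of the GC-rich ones. The TATA box (TATAAA), the AP-1 site (TGACTCA) and the glucocorticoid half-site (AGAACA), searched on both strands, stood in 0 of the 8 windows, against 12.4%, 4.46% and 16.1% of all promoters and 2.7%, 2.41% and 6.33% of the GC-rich ones. Neither the CACCC box nor the GC box separated Klf15 from the 3 members on the other side.

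The 6 arrays had median intensities of 15.6 to 16.1 units over 33079 probe sets. Zc3h10 itself read 25.2, 30.2 and 22.9 units in Zc3h10 shRNA cells and 25.9, 39.0 and 35.3 units in scramble cells, so the groups overlapped. Its log2 difference of -0.34 ± 0.17 (SE) did not pass (limma, adjusted p = 0.301), and moved to -0.52 when scramble replicate 1 was left out and to -0.22 when scramble replicate 2 was. The exact permutation test, two-sided, gave p = 0.2, and 3 arrays a group cannot go under 0.1. Adipocyte markers were well above background in both groups, and all 7 of 7 were lower in Zc3h10 shRNA cells, with a summed level of 9653 to 10362 units against 16605 to 18378 in scramble cells. Plin1, a lipid droplet coat protein gene, was at -1.16 ± 0.09 and the adiponectin gene Adipoq at -0.84 ± 0.08. Among 7 markers of progenitors and fibroblasts, 3 were higher and 1 lower. Prrx1 was at 0.80, Pdgfrb at 0.75 and Pdgfra at -0.66, while Fap, also higher, lay under the background level in scramble cells. Their summed level, which weighs the brightest probe sets most, was 6102 to 6406 units in Zc3h10 shRNA cells and 4753 to 5386 in scramble cells. The sum thus does not stand for a shared direction of the 7 markers. Of the endothelial and macrophage markers, 5 of 6 in each list lay under the background level in both groups, as did 3 of 5 epithelial markers, and limma called 0 genes of these 3 lists, with 0 at an unadjusted p under 0.05. The background level is 20.3 units (4.34 in log2), below which all but the brightest of 1375 olfactory and vomeronasal receptor genes lay in scramble cells (upper end of their central 95%). In bulk RNA, fewer cells of a type and less RNA per cell cannot be told apart, and the part of cell makeup in the results that follow was not tested.

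In Zc3h10 shRNA cells 2 of the 10 members fell, Klf15 and Klf10, and 0 rose at an adjusted p under 0.05 (limma, Benjamini-Hochberg over all probe sets). Across the array 12.1% of named genes passed, 5.51% higher and 6.6% lower, and among the 8025 genes whose mean level lay within the range of the 10 members 24% passed. The share of members called was thus near these backgrounds. At an unadjusted p under 0.05 there were 5 members, Klf3, Klf4 and Klf6 above 0 and Klf10 and Klf15 below it. The changes were small. They ran from -0.56 to 0.36 on the log2 scale (Zc3h10 shRNA minus scramble), with a median of -0.11 against 0.01 over all named genes and a median size of 0.26 against 0.14. The 3 arrays of each group did not overlap for 9 of the 10 members, all but Klf2, where 31.9% of named genes and 55% of those at the members' levels did not. All 10 members lay above the background level in both groups, and with 3 arrays a group a member that did not pass may still differ. The count of 2 became 1 without scramble replicate 1 (Klf15, lower), 1 without Zc3h10 shRNA replicate 1 (Klf3, higher) and 0 without any one of the other 4 arrays, while it became 5, with Klf3, Klf4 and Klf6 added as higher, under 4 of the other settings.

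**Figure D1:**
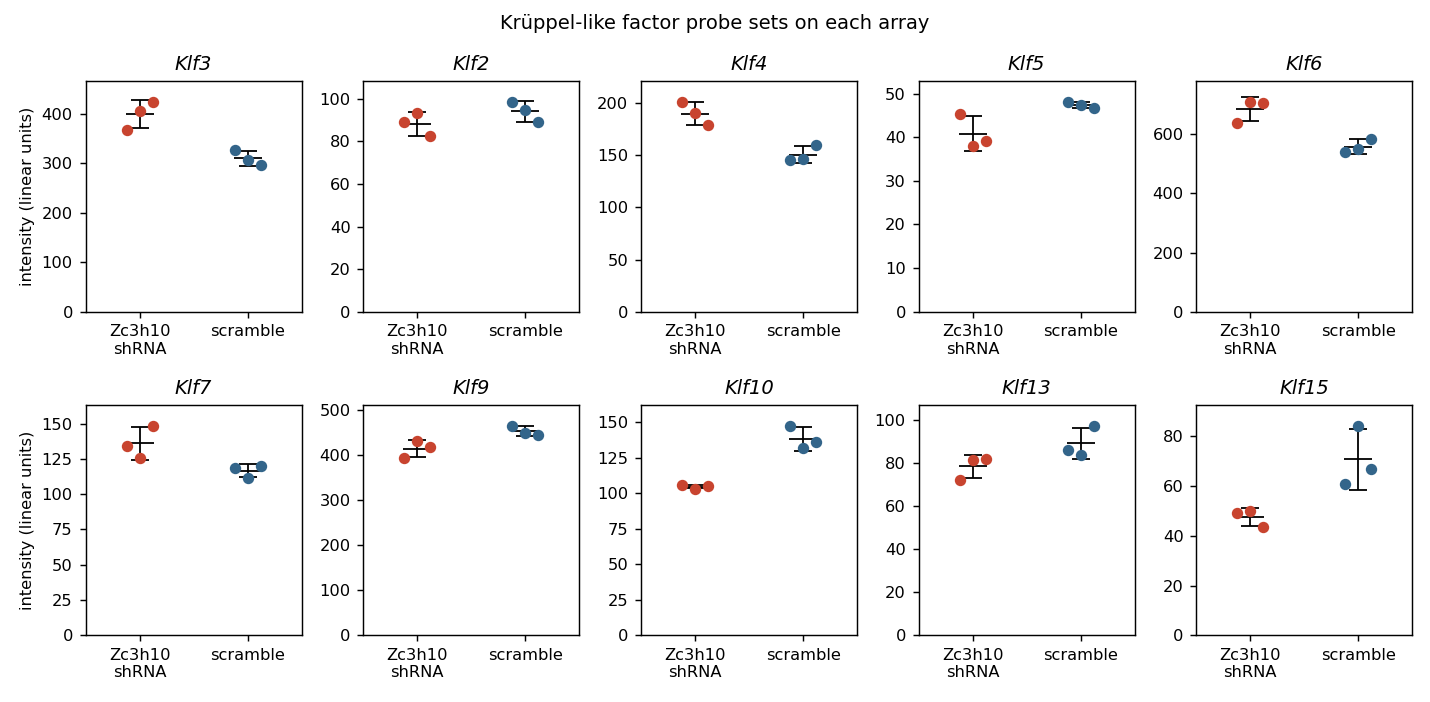
Intensity of each member's probe set on a linear axis from 0, with 1 point per array, Zc3h10 shRNA left and scramble right, and the bar giving mean ± SD (n = 3). The groups are clear of each other for every member but Klf2. By the log2 difference Klf15 departs most from scramble, at 67.7% of it. Heights are not comparable between panels, since each is another probe set.

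Klf15 raises transcription of the insulin-responsive glucose transporter in adipocytes and of amino acid-degrading enzymes in liver and muscle, and is itself induced by glucocorticoids. Its probe set read 49.2, 49.9 and 43.4 units on the Zc3h10 shRNA arrays and 60.8, 84.3 and 67.1 units on the scramble arrays. Every Zc3h10 shRNA array lay below every scramble array, and scramble replicate 2 was the highest. The log2 difference was -0.56 ± 0.13 (SE), which puts Zc3h10 shRNA cells at 67.7% of scramble (95% confidence interval 54.6 to 84.0%) with limma's adjusted p = 0.0365. This was the largest change among the 10 members. The call held in 8 of 8 other settings but in only 1 of 6 fits with an array left out. Among the 8, the use of other probe sets repeats the reported fit for every member but Klf7, so it is no separate check of Klf15. Without scramble replicate 2 the difference was -0.43 (adjusted p = 0.0903), without scramble replicate 3 it was -0.59 (0.0819), and without Zc3h10 shRNA replicates 1, 2 and 3 the adjusted p was 0.0762, 0.0801 and 0.126.

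Klf10, also known as the TGF-beta-inducible early gene Tieg1, encodes a repressor that takes part in growth control. It read 105.6, 103.3 and 105.4 units in Zc3h10 shRNA cells and 147.7, 131.8 and 136.0 units in scramble cells. The groups were well apart, and the Zc3h10 shRNA arrays agreed closely with each other. The log2 difference was -0.40 ± 0.09 (SE), or 75.7% of scramble with an interval of 65.9 to 87.1% (limma, adjusted p = 0.0251), and the call held in 7 of 8 other settings. Among these settings, the use of other probe sets repeats the reported fit for Klf10. Leaving out any 1 array left the difference between -0.44 and -0.35 but ended the call, with adjusted p values of 0.0574 to 0.0814.

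The other members of the SIN3-binding group also lay below scramble without passing. Klf9, which is induced by glucocorticoid and thyroid hormone and acts on the Pparg promoter in later adipogenesis, read 393.8, 432.4 and 418.2 units in Zc3h10 shRNA cells and 465.8, 449.3 and 445.6 units in scramble cells. The lowest scramble array was above the highest Zc3h10 shRNA array by a small margin, and the difference was -0.13 ± 0.09 (adjusted p = 0.456). Klf13, which in human T lymphocytes activates a chemokine gene, read 72.0, 81.2 and 81.8 units in Zc3h10 shRNA cells against 86.1, 83.9 and 97.3 units in scramble cells. Its difference was -0.19 ± 0.10 (adjusted p = 0.355), and the intervals of 79.7 to 105% of scramble for Klf9 and 74.8 to 103% for Klf13 both include no change. Without scramble replicate 3 the Klf13 difference was -0.12. Of the SIN3-binding genes that are not among the 10, Klf11 was at -0.21 and Klf16 at 0.12, each with an interval that includes 0. Klf14 lay under the background level, and limma called 0 of the 3.

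Klf3, a CtBP-dependent repressor that slows adipogenesis when it is expressed in 3T3-L1 cells, had the largest difference above 0. It read 367.8, 406.0 and 423.7 units in Zc3h10 shRNA cells and 326.7, 307.5 and 295.5 units in scramble cells. All Zc3h10 shRNA arrays lay above all scramble arrays. The log2 difference was 0.36 ± 0.10 (SE), or 129% of scramble with an interval of 111 to 150%, and it just missed the threshold (limma, adjusted p = 0.0515). It passed in 4 of 8 other settings, with an adjusted p of 0.00778 where the limma prior followed intensity, and without Zc3h10 shRNA replicate 1 (0.42, adjusted p = 0.0496). The other 5 fits with an array left out did not call it (adjusted p = 0.0773 to 0.162). Among the 8 settings, the use of other probe sets repeats the reported fit for Klf3.

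In the mostly activating group the members lay on both sides of 0 and none passed the threshold (limma, 0 of 5, with Klf4 and Klf6 at an unadjusted p under 0.05). Klf4, which with Egr2 switches on Cebpb at the start of adipogenesis, read 201.0, 190.2 and 178.6 units in Zc3h10 shRNA cells and 145.6, 145.9 and 160.2 units in scramble cells. The difference was 0.33 ± 0.09 (adjusted p = 0.0634). Klf6, a repressor of the preadipocyte gene Dlk1, read 637.8, 709.3 and 706.1 units in Zc3h10 shRNA cells and 539.8, 549.2 and 585.7 units in scramble cells. Its difference was 0.29 ± 0.09 (adjusted p = 0.0926). The groups did not overlap for either gene, and each passed in the same 4 of 8 other settings as Klf3, Klf4 with adjusted p values down to 0.0153 and Klf6 down to 0.0121. No fit with an array left out called either, with adjusted p values of 0.0927 to 0.183 for Klf4 and 0.0856 to 0.231 for Klf6. For Klf4 and Klf6 as well, the use of other probe sets repeats the reported fit.

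Klf7, which inhibits differentiation of human preadipocytes when overexpressed, read 134.0, 125.3 and 148.4 units in Zc3h10 shRNA cells and 118.5, 111.2 and 120.3 units in scramble cells. The groups were narrowly apart, and the difference was 0.22 ± 0.10 (adjusted p = 0.246). A second Klf7 probe set lay under the background level in both groups, at 7.99, 8.49 and 7.86 units in Zc3h10 shRNA cells and 6.40, 8.59 and 8.49 units in scramble cells, and showed 0.06 ± 0.13. Klf5, which is induced by the early C/EBP factors and activates Pparg, read 45.4, 38.0 and 39.1 units in Zc3h10 shRNA cells and 48.1, 47.5 and 46.8 units in scramble cells. The scramble arrays were tightly grouped, Zc3h10 shRNA replicate 1 came near them, and the difference of -0.22 ± 0.10 did not pass (adjusted p = 0.241). Klf2, a repressor of Pparg best known from endothelium, read 89.1, 93.5 and 82.3 units in Zc3h10 shRNA cells and 98.5, 94.9 and 88.9 units in scramble cells. These ranges overlapped, and Klf2 had the smallest difference of the 10 at -0.09 ± 0.09, with an interval of 80.8 to 109% of scramble (adjusted p = 0.657), and -0.04 without Zc3h10 shRNA replicate 3 and -0.06 without scramble replicate 1.

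Of the family beyond the 10 members, 7 further Klf genes and 8 Sp genes were measured, and limma called 0 of the 15, with Klf8 and Klf14 at an unadjusted p under 0.05. Klf8 was at -0.27 ± 0.10 and Klf14 at 0.30 ± 0.12, and both lay under the background level in both groups, as did Klf1, Klf17 and 5 of the 8 Sp genes. The expressed relatives Klf11, Klf12, Klf16, Sp1, Sp3 and Sp4 lay between -0.21 and 0.16. Sp2 was not analysed here.

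**Figure D2:**
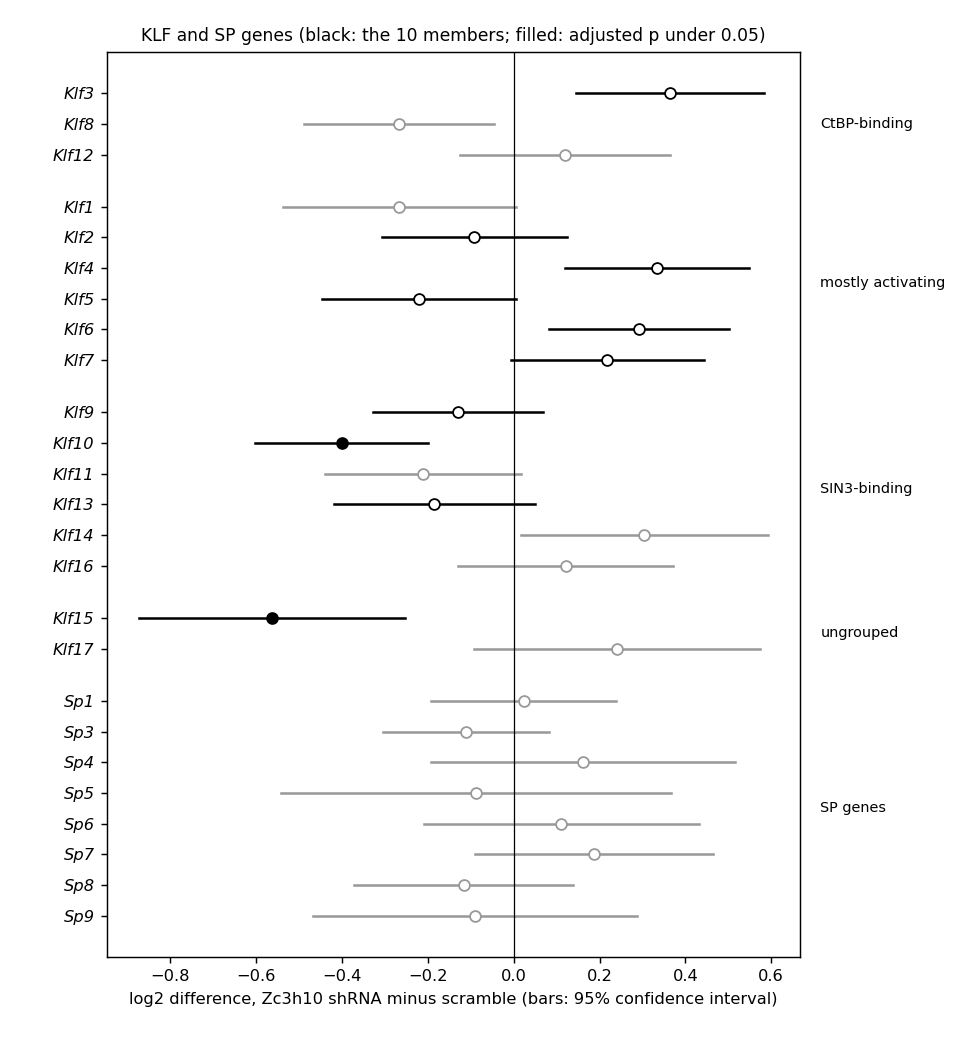
Log2 difference, Zc3h10 shRNA minus scramble, for each KLF and SP gene with its 95% confidence interval (n = 3 arrays per group), grouped by the corepressor or activator class given in the text; black marks the 10 members, grey their relatives, and filled points an adjusted p under 0.05. Klf10 and Klf15 are the filled points. Without an adjusted p under 0.05, the intervals of Klf3, Klf4, Klf6 and Klf14 lie wholly above 0 and that of Klf8 wholly below 0. Klf8 and Klf14 lay under the background level in both groups.

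Each member was also compared with the next measured protein-coding gene on either side, by the order of genes in RefSeq. Of 20 neighbours 3 passed the threshold, or 15%, near the 12.1% of all named genes. They are named here after their values were seen. Tbc1d1 and Tlr1 on either side of Klf3 were at 0.65 (limma, adjusted p = 0.0324) and 0.62 (adjusted p = 0.0208), and Azin1, beside Klf10, was at -0.45 (adjusted p = 0.0381). Tlr1 was dim, at a mean of 35.1 units in Zc3h10 shRNA cells and 22.9 in scramble cells, near the background level of 20.3. Its difference went down to 0.29 in the other settings, though it was called in 7 of 7 of them (limma, adjusted p up to 0.0357). Tbc1d1 was at 93.6 and 59.5 units and Azin1 at 260 and 355. Tbc1d1 encodes a Rab GTPase-activating protein of glucose transporter traffic, Tlr1 a Toll-like receptor, and Azin1 an inhibitor of antizyme. Tbc1d1 was not called without scramble replicate 2 or 3 or Zc3h10 shRNA replicate 2 or 3 (adjusted p up to 0.112), Tlr1 without any array but scramble replicate 1 (up to 0.0831), and Azin1 without any array but Zc3h10 shRNA replicate 1 (up to 0.130).

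Most transcripts of the proteins through which these factors work did not pass. Of 16 measured cofactors and ubiquitin ligases of the family, 2 rose and 0 fell, with a median of 0.09. That is 12.5%, against 12.1% of all named genes and 24% of those at the members' levels. Sap30, a subunit of the SIN3 deacetylase complex, read 118.2, 106.5 and 117.6 units in Zc3h10 shRNA cells and 57.0, 52.8 and 48.0 units in scramble cells. The groups were far apart, at 1.12 ± 0.10 or 2.17-fold (limma, adjusted p = 0.000867), and Sap30 passed in all 6 fits with an array left out. Crebbp, a histone acetyltransferase and coactivator, was at 0.38 ± 0.08 (adjusted p = 0.0250), and was not called without any 1 array (adjusted p = 0.0539 to 0.0934). Klf3's partners Ctbp1 and Ctbp2 were at 0.16 and -0.27, and the SIN3 scaffolds Sin3a and Sin3b at -0.15 and 0.14, all short of the threshold.

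Among 16 transcription factors of adipogenesis that act beside these genes, 6 fell and 0 rose (37.5%), with a median of -0.18. The share was 12.1% over all named genes and 24% over those at the members' levels. Cebpa, a master regulator of the mature adipocyte whose promoter Klf3 occupies in mouse cells, was at -1.71 ± 0.14 (adjusted p = 0.000697). Pparg, on whose promoter Klf2, Klf5 and Klf9 act, was at -0.96 ± 0.12 (adjusted p = 0.00222), and the lipogenic regulator Srebf1 at -0.90 ± 0.09 (adjusted p = 0.00108). Rxra, the partner of Pparg, was at -0.36 ± 0.09 (adjusted p = 0.0333), and was not called without any 1 array (adjusted p = 0.0555 to 0.114). The other 2 that fell, named after their values were seen, were the cytokine-signalling factors Stat5a at -0.44 (adjusted p = 0.0475), which was not called without scramble replicate 2 or 3 or Zc3h10 shRNA replicate 1 or 2 (adjusted p up to 0.154), and Stat5b at -0.36 (adjusted p = 0.0471), which was not called without any 1 array (up to 0.156). Some listed genes tied to single members did not pass. Cebpb, the target of Klf4, was at -0.41 ± 0.12 (adjusted p = 0.0739), Cebpd at 0.08 ± 0.08, and Dlk1, the target of Klf6, at -0.07 ± 0.12. The count of 6 became 3 without scramble replicate 2, scramble replicate 3, Zc3h10 shRNA replicate 1 or Zc3h10 shRNA replicate 2.

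Of 21 genes reported as targets of single Krüppel-like factors in mouse or human cells, 5 rose and 7 fell, with a median of -0.13 and a median size of 0.60. They make 57.1% of the list, against 12.1% of all named genes and 24% of those at the members' levels. The list was made with earlier results of these data known and holds adipocyte genes that fell with the other adipocyte markers, so it is no independent evidence on any factor. Slc2a4, the glucose transporter activated by Klf15, read 68.9, 50.2 and 58.8 units in Zc3h10 shRNA cells and 150.9, 182.9 and 178.4 units in scramble cells. It was far lower in all Zc3h10 shRNA arrays, at -1.53 ± 0.14 (adjusted p = 0.000846). Further listed targets of Klf15, named after their values were seen, were the branched-chain aminotransferase Bcat2 at -0.80 and the alanine aminotransferase Gpt at -1.02. The proline dehydrogenase gene Prodh passed as lower (adjusted p = 0.0455) but lay under the background level in Zc3h10 shRNA cells, so its size is not given, and it was not called without any 1 array (adjusted p = 0.0644 to 0.147). The acetyl-CoA synthetase gene Acss1 lay under that level in both groups. Thrombomodulin, Thbd, a target of Klf2 and Klf4 in endothelium, was at 1.12 ± 0.12 (adjusted p = 0.00132), while Klf2 and Klf4 themselves did not pass. The smooth muscle gene Tagln, a target of Klf5 and Klf4, was at 1.01 ± 0.11 and the cell cycle inhibitor gene Cdkn1a, a target of Klf6 and Klf4, at -0.79 ± 0.08. Besides Pparg, the remaining listed genes past the threshold, also named after their values were seen, went both ways. Eng was at 0.96, Smad7 at 0.65 (limma, adjusted p = 0.0414), S1pr1 at 0.60 and C1qtnf12 at -1.44. Smad7 was dim and uneven in scramble cells, at 32.2, 36.2 and 23.5 units. None of these genes was followed singly with an array left out.

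Klf9 and Klf15 are glucocorticoid-responsive, and Klf9, Klf10 and Klf15 oscillate with the circadian clock in several mouse tissues, so genes of both systems were read beside them. Of 11 glucocorticoid-responsive genes 1 rose and 1 fell (18.2%), with a median of -0.16. This share lay between the 12.1% of all named genes and the 24% of those at the members' levels. The phosphatase gene Dusp1 was at 0.73 ± 0.11 (adjusted p = 0.00470) and the zinc finger gene Zbtb16 at -0.54 ± 0.11 (adjusted p = 0.0193), which was not called without scramble replicate 2 or 3 or Zc3h10 shRNA replicate 1 or 2 (adjusted p up to 0.0752). Of 15 clock genes 3 rose and 4 fell (46.7%, against the same 12.1% and 24%), with a median of -0.04. The repressors Nr1d1 and Nr1d2 (REV-ERB) were at 1.06 ± 0.11 and 1.04 ± 0.11, the activator Npas2 at -1.28 ± 0.13 (adjusted p = 0.00127) and the repressor Bhlhe40 at -0.74 ± 0.12. Npas2 was dim in Zc3h10 shRNA cells, at 24.1, 31.8 and 32.3 units, and was at -0.75 with an offset of 32 before log2. The rest past the threshold, named after their values were seen, were Clock at 0.43, Arntl at -0.40 and Tef at -0.32 (limma, adjusted p = 0.0284, 0.0205 and 0.0477). Clock, Arntl and Tef were not followed singly with an array left out. Nr1d1 read 317.4, 338.0 and 379.4 units in Zc3h10 shRNA cells and 151.8, 176.2 and 168.7 units in scramble cells, with no overlap. The clock count of 7 became 4 without any one of the 3 scramble arrays or Zc3h10 shRNA replicate 2 or 3. The sources used here do not give the clock time at which each culture was harvested, and its part in these values was not tested.

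**Figure D3:**
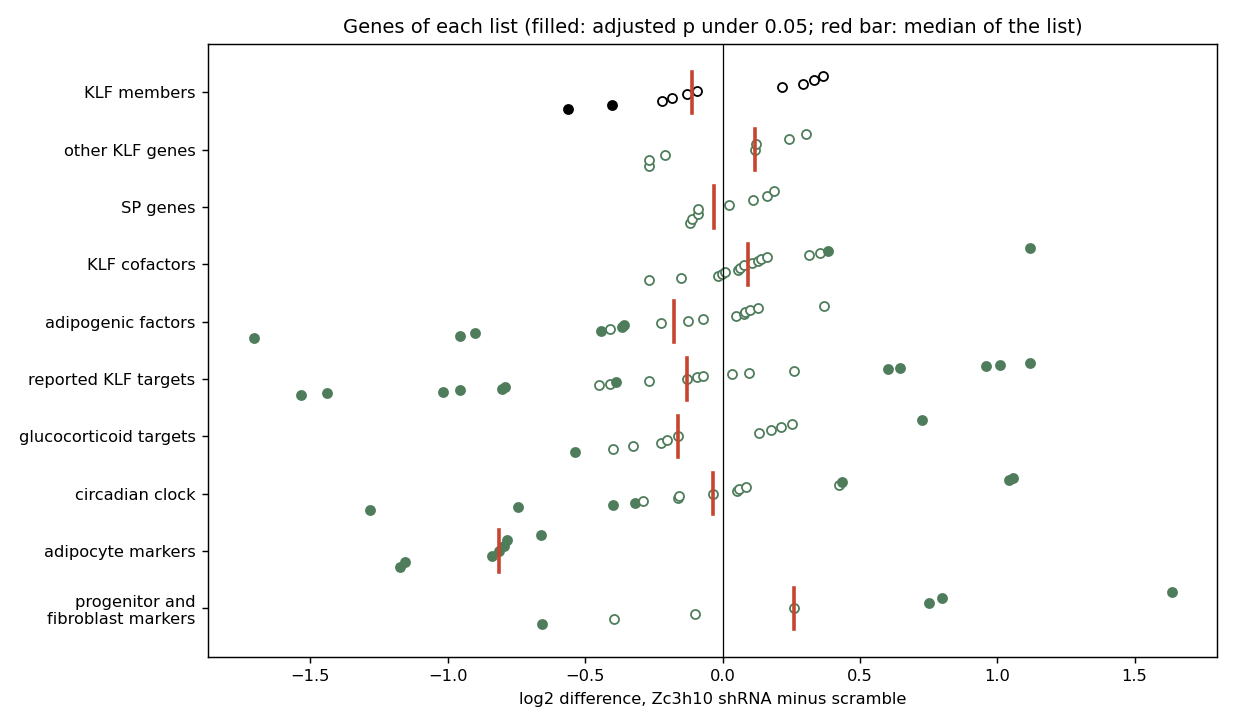
Log2 difference, Zc3h10 shRNA minus scramble, of each gene in 10 of the lists, 1 point per gene, filled at an adjusted p under 0.05, with the red bar at the median of the list. The KLF members span -0.56 to 0.36, while the adipogenic factors reach -1.71 and the reported KLF targets run from -1.53 to 1.12.

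**Figure D4:**
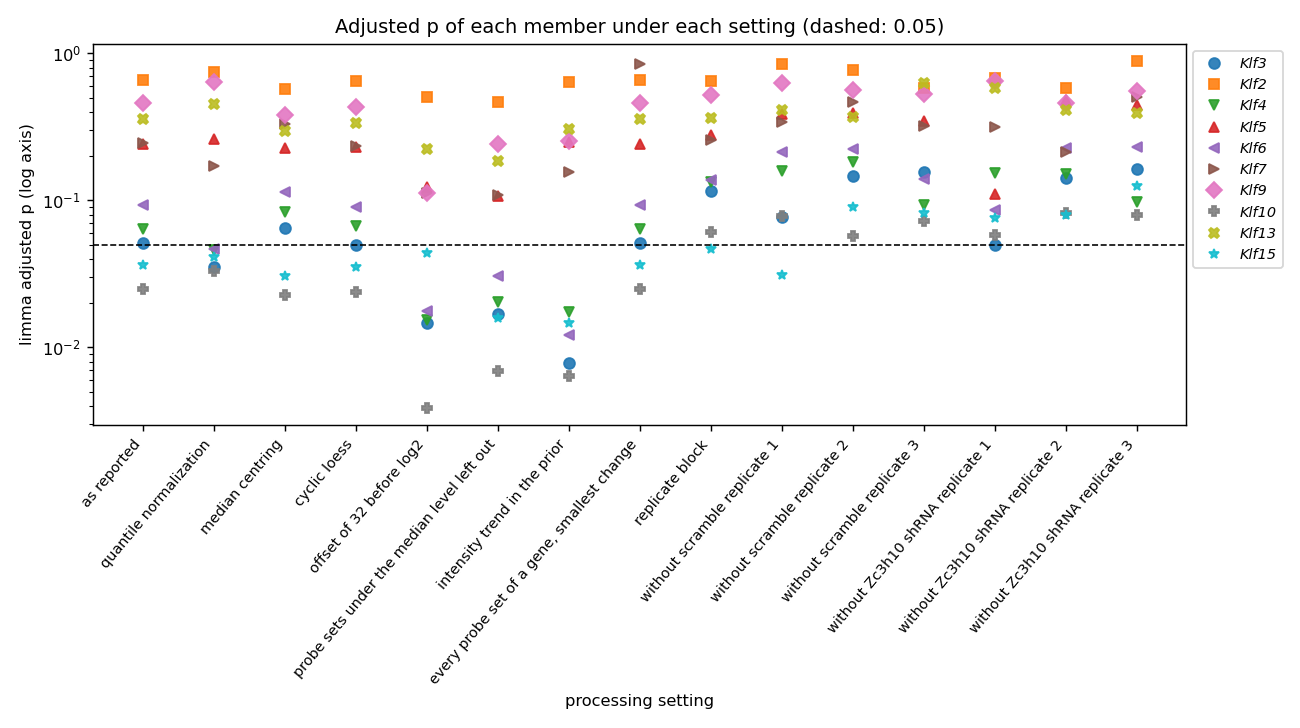
Adjusted p of each member (limma, log axis) as reported and under every other setting, with 1 symbol per gene and the dashed line at 0.05. Klf3, Klf4 and Klf6 drop below the line together with Klf10 and Klf15 under quantile normalization, an offset of 32, removal of dim probe sets and an intensity trend in the prior, while with 1 array left out at most 1 symbol in a column is below it.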

How the data were processed

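Total RNA of 6 cultures, 3 per group by the replicate titles, was read on 1 biotin-labelled Affymetrix array each. The authors deposited 1 summarised intensity per probe set and array on a linear scale, with no pooling. Per the submitters' processing notes, Affymetrix Expression Console and Partek 6.6 were used, in which order or for what is unstated. How background was corrected, probes summarised and arrays normalized is not stated in those notes or the labels, and bears most on dim probe sets. The deposited intensities had nearly equal medians between arrays.

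Log2 of the intensities was tested for all 33079 probe sets with limma 3.58.1 in R 4.3.3 (lmFit, eBayes, two-sided; 4 residual degrees of freedom, 4.00 from the prior), without a block, and adjusted by Benjamini-Hochberg. The threshold is the 5% of the series' design text. Names came from the platform annotation, checked by gene number against RefSeq (GRCm38.p6): 23043 probe sets had 1 symbol, 1740 several and 8296 were unnamed here. Related genes can share probes. Precision is limited by 3 arrays a group.

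The 10 members, the other lists and the tests were chosen with earlier results of these data known. All members, the relatives past the threshold, the 4 genes of smallest p past the threshold among the cofactors, adipogenic factors, reported targets, glucocorticoid-responsive genes and clock genes, and Cebpb, Cebpd, Cebpa, Pparg, Dlk1 and Slc2a4 whatever their values were named; others were chosen after their values were seen. Same-numbered arrays were checked for pairing: their deviations from the group means correlated at 0.08, -0.0046 and 0.04. Zc3h10 shRNA replicates 1 and 3 correlated best with their own number, and replicate 2 did not. With 3 arrays a group this check cannot decide whether cultures were paired, and the labels state no pairing. Alternatives were quantile, median and cyclic loess scaling, an offset of 32, a filter on dim probe sets, an intensity trend, other probe sets, a replicate block and leaving out each array. Among the members, the use of other probe sets can change the values of Klf7 only. The fit was tested on simulated data.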

Additional observations from a re-analysis of the deposited data

How the results depend on the processing

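The count of 2 changed members became 5 (3 higher, 2 lower) under quantile normalization, with an offset of 32, with the dimmer probe sets (under the median level) removed and with an intensity trend in the prior. It was 0 to 1 with 1 array left out. The count of 2 cofactors was 6 with the offset, 5 with the dim probe sets left out, 4 with the trend and 1 with each array left out, and the count of 2 glucocorticoid-responsive genes was 4 with the dim probe sets left out, 4 with the trend and 1 to 2 with 1 array left out. With 1 array left out, the 6 adipogenic factors became 3 to 4, the 7 clock genes 4 to 6 and the 3238 changed probe sets 1807 to 2578. Dlk1, which did not pass, ran from -0.15 to 0.012 with 1 array left out and turned positive without Zc3h10 shRNA replicate 3. No member changed sign under any alternative, and limma called 0 of the other KLF and SP genes under each, with 15 tested except where the dimmer probe sets were removed, which left 8. The replicate block pairs arrays by number alone. With it the counts were 1 member (Klf10 was not called, limma adjusted p = 0.0613), 1 cofactor, 3 adipogenic factors, 4 clock genes and 2455 probe sets. In the pairing check 2 of 3 Zc3h10 shRNA arrays correlated best with their own number, which does not decide whether arrays were paired. The causes of these shifts were not tested. Signal over background limits the dim relatives Klf1, Klf8, Klf14 and Klf17 and the listed targets Prodh and Acss1.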
